A study of Drosophila melanogaster with 34 samples.

Results

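The genes *h*, *grh* and *Myo31DF* of *Drosophila melanogaster* are described here after optogenetic activation of the mushroom body (MB), the memory centre of the fly brain. The study itself followed them up by RT-qPCR of RNA from heads, hours after repeated aversive odour training. That follow-up differs from the libraries here in stimulus, tissue and time scale. They are 3 of 17559 genes in the count table, and all 3 were among the 11670 genes with enough reads to test. The study took them as examples from gene ontology terms enriched among genes that carried sites of the acetyltransferase CBP, of CoRest-C and of the deacetylase Rpd3. Its text does not say whether their RNA 10 min after activation also counted in the choice, but that comparison with naïve flies was known to the study by then. Their values at 10 min against naïve, and the presence of those sites, are therefore given as descriptions without a test.

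The series holds 34 samples, of which 15 are nuclear RNA-seq libraries in 5 groups of 3 and the others are ChIP-seq libraries of the 3 proteins and 1 library of input DNA. All samples are labelled line CS10 and mushroom body. Flies expressed the red-light-gated channel CsChrimson, and the 5 RNA groups are naïve flies, flies with 5 min of optogenetic activation and no rest, and flies with the same activation followed by 5, 10 or 15 min of rest. Per the study's methods, MB nuclei carried a FLAG-KASH tag and were pulled from head extracts with anti-FLAG, so both the channel and the tag depended on the MBp-LexA driver in every RNA group. Naïve flies are thus controls for the illumination and its timing, and not for the transgenes. CoRest-C was pulled down through a myc-tagged copy expressed from a drug-inducible MB driver, whereas CBP and Rpd3 were pulled down with antibodies to the proteins themselves. The labels give no fly age, and do not say whether the 3 replicates of a group came from separate collections, so p-values measure the spread between these libraries.

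Hairy, the product of *h*, is a bHLH-Orange repressor of the HES family, which binds DNA and recruits corepressors such as Groucho and CtBP, and is known from segmentation and bristle patterning. Grainyhead, the product of *grh*, is a transcription factor known for epidermal barrier genes and wound repair, and it also acts in neural stem cells. *Myo31DF* encodes Myosin ID, an unconventional class I myosin that moves along actin and is known for setting the left-right asymmetry of the fly gut and genitalia. CBP acetylates histones and is found at promoters and enhancers of active genes. CoRest is a scaffold of histone demethylase and deacetylase complexes, and Rpd3 is a histone deacetylase.

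The sites of the 3 proteins lay over the starts of *h* and *Myo31DF*, so the 250 bases before each start are printed, from the RefSeq Release 6 assembly (dm6), in the direction of transcription. The stretch of *h* is chr3L:8675509-8675758 on the plus strand, and that of *Myo31DF* is chr2L:10506780-10507029 on the minus strand. For *h* the 101 bases about the summit of a separate CBP site further upstream follow, at chr3L:8672903-8673003 on the plus strand. Capitals mark the letters of searched motifs.
h, bases before the start: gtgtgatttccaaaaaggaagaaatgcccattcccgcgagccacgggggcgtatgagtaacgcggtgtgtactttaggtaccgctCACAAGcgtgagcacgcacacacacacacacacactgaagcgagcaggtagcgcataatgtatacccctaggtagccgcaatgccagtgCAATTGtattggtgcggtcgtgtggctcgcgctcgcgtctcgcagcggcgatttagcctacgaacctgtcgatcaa
Myo31DF, bases before the start: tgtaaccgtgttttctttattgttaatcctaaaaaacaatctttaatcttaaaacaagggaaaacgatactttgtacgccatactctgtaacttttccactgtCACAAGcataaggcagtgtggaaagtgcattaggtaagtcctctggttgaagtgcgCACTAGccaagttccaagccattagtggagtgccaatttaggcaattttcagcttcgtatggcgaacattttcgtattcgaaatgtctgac
h, upstream CBP site: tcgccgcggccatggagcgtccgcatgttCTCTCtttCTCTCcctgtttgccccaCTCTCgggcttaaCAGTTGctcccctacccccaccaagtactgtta

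The stretch before *h* was rich in G and C (55.2%), against a median of 37.6% over 11459 promoters (quartiles 32.0% and 44.8%), while that before *Myo31DF* had 39.2%. Motif letters were searched on both strands of the window from 250 bases before to 50 bases after the start. *h* held 1 match to CANNTG, the E-box letters read by bHLH proteins, at position -76 relative to the start, and 77.1% of promoters held such a match. It held 1 match to CACNAG, the N-box letters, at position -165. *Myo31DF* held 2 matches to CACNAG, at positions -147 and -91, and 30.3% of promoters held at least 1. Past the start, *h* also matched TGACG, the short form of the letters read by CREB proteins, and GAGAG, the GAGA-factor letters, which 24.3% and 31.5% of promoters held.

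Neither window matched CACGTG (4.11% of promoters), CACGCG, which Hairy itself is known to read (6.89%), AACCGG, which Grainyhead reads (7.30%), TGACGTCA (0.532%), TGACTCA, which is TGAGTCA on the other strand (2.61%), TGGGAA (15.8%) or GAANNTTC (8.88%). Matches to CACGTG are counted under CANNTG as well, and those to TGACGTCA under TGACG. The upstream CBP site of *h* held 3 matches to GAGAG, printed as CTCTC, and 1 to CANNTG. Of the 6684 CBP summits, 59.7% had GAGAG within the same 101 bases, 27.5% had at least 3 matches and 40.1% had CANNTG.

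*h* (FBgn0001168, symbol hry in the annotation) spans chr3L:8675759-8679253 on the plus strand, 3495 bp with 2 transcripts. *Myo31DF* (FBgn0086347) spans chr2L:10491814-10506779 on the minus strand, 14966 bp with 3 transcripts that share 1 start. *grh* (FBgn0259211) spans chr2R:17801132-17842820 on the plus strand, 41689 bp with 8 transcripts from 5 starts. All sites come from the deposited lists in dm6, 1 list per protein. Per the methods, a site had to recur in at least 2 of 3 ChIP replicates of illuminated flies, so a site has no replicate spread and no naïve counterpart here. Fold enrichment is the MACS height of a site over its local background.

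At *h*, each protein had 1 site in the gene body or the 1 kb before it, and all 3 sites covered the start. The CBP site (chr3L:8675226-8676242) had a fold enrichment of 12.0, against a median of 7.17 over 6684 CBP sites, and its summit lay at position -52 relative to the start. The CoRest-C site (chr3L:8675493-8676160) had 3.60, against a median of 4.17 over 1237 sites. The Rpd3 site (chr3L:8675452-8676308) had 4.21, against a median of 4.10 over 2717 sites. The CoRest-C site lay wholly inside the others, so the stretch common to the 3 proteins was its 668 bp. The additional CBP site upstream (chr3L:8672691-8673179) had a fold enrichment of 24.8, rank 711 of 6684, with its summit at position -2806, and overlapped no site of the other proteins.

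*Myo31DF* had a different order of heights over its start. CoRest-C (chr2L:10506527-10507521) had a fold enrichment of 6.45, rank 48 of 1237, whereas CBP (chr2L:10506537-10507037) had 4.13, rank 5302 of 6684. Rpd3 (chr2L:10506516-10507595) had 3.82, rank 1728 of 2717. The 501 bp of the CBP site were common to the 3 proteins. *CG6094*, a neighbour named after its values were seen, is read the opposite way and its start lies within the CoRest-C and Rpd3 sites but outside the CBP site.

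*grh* was covered by 13 sites, 9 of CBP, 2 of CoRest-C and 2 of Rpd3. The CBP sites had fold enrichments between 3.06 and 22.3, and the highest (chr2R:17800759-17803186) covered 3 of the 5 starts. All 3 proteins overlapped at the starts at 17801132 and 17823565. CoRest-C had 4.20 and 3.92 there, and Rpd3 had 3.86 and 4.51. At least 9 CBP sites were counted at 36 of 11459 genes (0.314%), and 30 of these were among the 408 genes as long as *grh* or longer. Per 10 kb of window, *grh* had 2.11 CBP sites, *h* 2.22 and *Myo31DF* 0.626. Of the 11459 genes, CBP sites were found at 43.3%, those of CoRest-C at 13.2% and those of Rpd3 at 34.2%, and 8.71% (998 genes) carried sites of all 3 proteins.

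**Figure D1:**
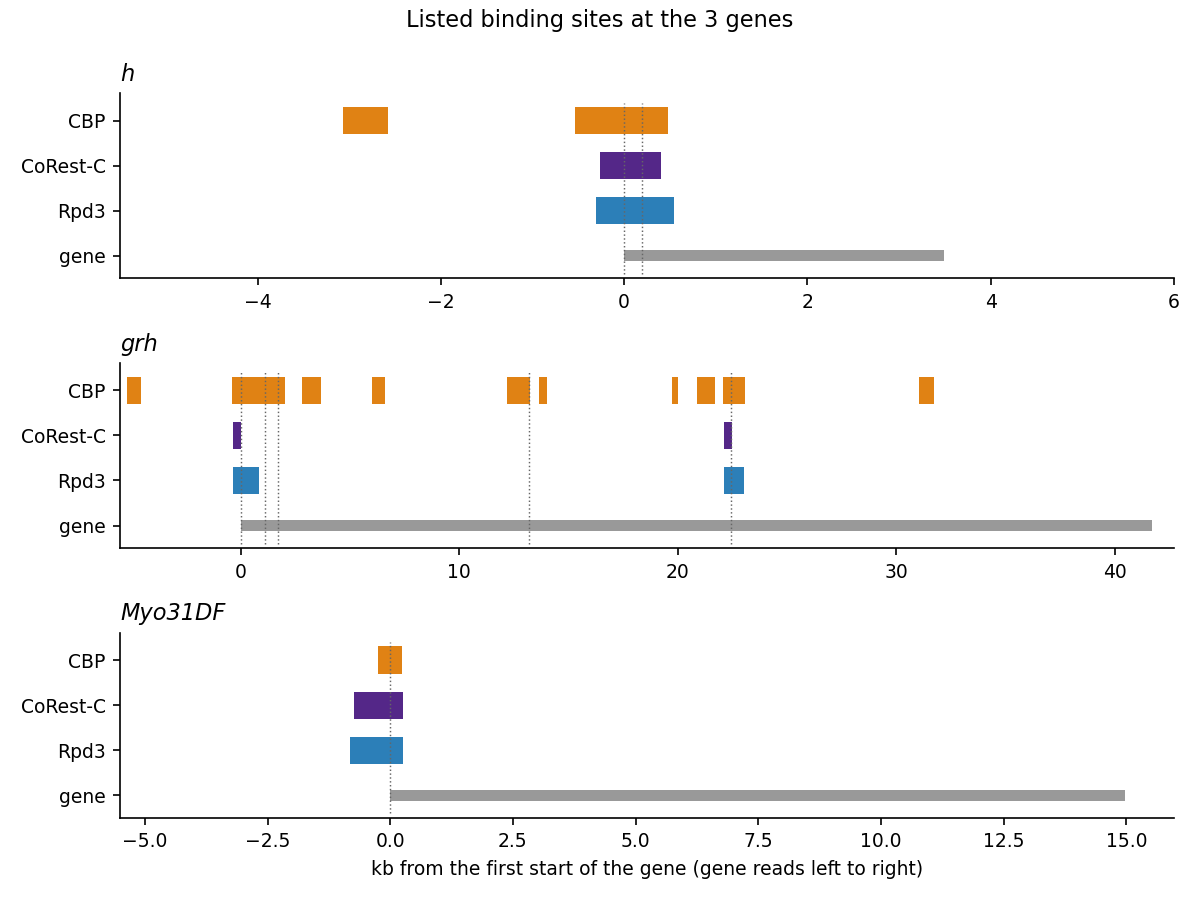
Sites of CBP, CoRest-C and Rpd3 along *h*, *grh* and *Myo31DF*, with distance from the gene's first start in kb on the horizontal axis and 1 row per protein. Each coloured bar is 1 listed site, the grey bar is the gene and dotted lines are annotated starts. The 3 proteins share the start of *h* and of *Myo31DF*, and *grh* carries 9 CBP sites over its length, with 1 more drawn further upstream.

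The RNA libraries held 10392334 to 18809246 counts in genes, and the typical variation between replicates was 13.4% (square root of edgeR's common dispersion). Values are CPM, counts per 1000000 counts of a library, on TMM-scaled library sizes. All 11 MB markers listed were detected in every library, with a sum of 2907 to 3508 CPM over the 15 libraries. Single MB markers differed in direction. Against naïve, 4 of the 11 were called lower and 0 higher at 5 min, where 6.02% of all tested genes were called lower. At 10 min 2 were called higher and 3 lower, against 14.5% and 13.9% of all tested genes. Markers of other head cells were present too (12 photoreceptor markers summed to 28625 to 33267 CPM in naïve libraries, and fat body markers to 12050 to 12400 CPM). In bulk nuclei, fewer cells of a type and less RNA per cell cannot be told apart.

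*h* was higher in every illuminated group than in naïve libraries and was highest at 10 min. It had 117, 93.6 and 124 CPM in the 3 naïve libraries, 157, 145 and 149.7 CPM with no rest, and 188, 173 and 183 CPM at 5 min. The 10-min libraries had 248, 239 and 251 CPM, and the 15-min libraries 189, 185 and 174 CPM. The 10-min libraries lay above all others, and the 15-min libraries overlapped those at 5 min. Group means were 112 ± 16.0, 150.3 ± 6.04, 181 ± 7.48, 246 ± 6.12 and 183 ± 7.47 CPM in time order (SD, n = 3 each).

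*h* reached 1.35-fold its naïve level with no rest (log2 0.43, SE 0.09, edgeR quasi-likelihood adjusted p = 0.00318), where 8.33% of tested genes were called at an adjusted p under 0.05. It was 1.62-fold at 5 min (log2 0.70, edgeR adjusted p = 2.56e-06) and 1.64-fold at 15 min (log2 0.71, edgeR adjusted p = 2.28e-06), with 14.8% and 9.65% of genes called. At 10 min it was 2.21-fold (log2 1.14, SE 0.09), a contrast that may have counted in the choice of the gene, where 28.4% of genes were called. The 4 comparisons share the naïve libraries and are not separate evidence for one another. The naïve libraries, too, may have counted in the choice of the gene.

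Between illuminated groups, *h* at 10 min exceeded 5 min by 1.36-fold (log2 0.44, SE 0.09, edgeR adjusted p = 0.00704), a comparison that called only 1.89% of genes. Without the second 5-min library this missed the threshold (log2 0.41, adjusted p = 0.0721). From its 10-min level *h* fell by 25.8% at 15 min (log2 -0.43, SE 0.09, edgeR adjusted p = 0.00117), where 16.9% of genes were called. At 10 min against no rest the difference was log2 0.71 (edgeR adjusted p = 1.65e-06, 14.3% of genes called). All these comparisons use the 10-min libraries, which may have counted in the choice of the gene.

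Without the naïve and 10-min libraries, differences of *h* were smaller. At 15 min it was 1.21-fold its level with no rest (log2 0.28, SE 0.09, edgeR adjusted p = 0.0472, 11.4% of genes called). That call was lost with library size alone as the scaling, and without any of 5 of the 6 libraries compared, where log2 stayed between 0.25 and 0.32. At 5 min against no rest it missed the threshold (log2 0.27, edgeR adjusted p = 0.131, 3.14% of genes called), and the 15-min and 5-min groups overlapped (log2 0.01, SE 0.09, edgeR adjusted p = 0.970, 10.9% of genes called). Over no rest, 5 min and 15 min together, *h* missed the threshold (F = 5.79, edgeR adjusted p = 0.0550), in a test that called 13.8% of genes.

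**Figure D2:**
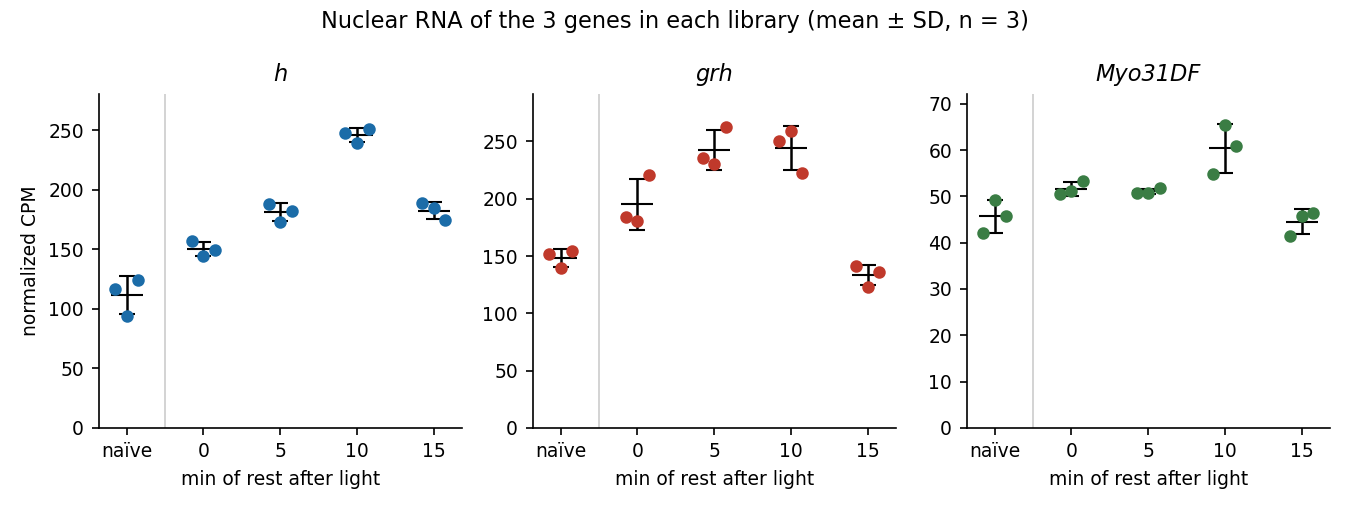
Level of *h*, *grh* and *Myo31DF* in CPM (vertical axes from 0) in the 5 RNA groups from naïve to 15 min of rest. Points are libraries, and black marks with bars are group means ± SD (n = 3). All 3 genes have their highest mean at 10 min, and the 15-min libraries of *grh* and *Myo31DF* overlap the naïve ones, whereas those of *h* lie above them.

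*grh* was higher than naïve with no rest, at 5 min and at 10 min, but not at 15 min. It had 152, 139 and 154 CPM in naïve libraries and 184, 181 and 221 CPM with no rest. It had 235, 231 and 263 CPM at 5 min, 250.2, 259 and 223 CPM at 10 min, and 141, 123 and 136 CPM at 15 min. The 5-min and 10-min libraries overlapped, as did the 15-min and naïve libraries. Group means were 148 ± 7.98, 195 ± 22.4, 243 ± 17.4, 244 ± 19.1 and 133 ± 9.10 CPM in time order (SD, n = 3 each).

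With no rest *grh* was 1.32-fold its naïve level (log2 0.40, SE 0.10, edgeR adjusted p = 0.00768). Without the third no-rest library the call was lost (log2 0.29, adjusted p = 0.0941), as it was with only the 6 libraries compared in the fit (adjusted p = 0.0531). At 5 min it was 1.64-fold naïve (log2 0.71, edgeR adjusted p = 2.75e-06), and at 10 min, given without a test as for *h*, also 1.64-fold (log2 0.72). At 15 min the difference from naïve missed the threshold (log2 -0.15, interval of ± 2 SE from -0.35 to 0.04, edgeR adjusted p = 0.356). All these comparisons use the naïve libraries, which may also have counted in the choice of the gene.

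The fall of *grh* at 15 min did not rest on the 10-min libraries. At 15 min it fell by 45.1% against 5 min (log2 -0.86, SE 0.10, edgeR adjusted p = 1.05e-07) and fell by 31.7% against no rest (log2 -0.55, edgeR adjusted p = 0.000121). Over no rest, 5 min and 15 min it varied with F = 40.9 (edgeR adjusted p = 2.92e-07). Against 10 min, whose libraries may have counted in the choice of the gene, it fell by 45.4% (log2 -0.87, edgeR adjusted p = 8.05e-08).

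The 10-min and 5-min levels of *grh* could not be separated (log2 0.01, interval -0.18 to 0.20, edgeR adjusted p = 0.988), and the sign of this difference turned with library size alone. At 10 min, again with libraries that may have counted in the choice, *grh* was 1.25-fold its level with no rest (log2 0.32, edgeR adjusted p = 0.0198). That call was lost without the first (log2 0.29) or second (0.27) no-rest library, without the first (0.31) or second (0.28) 10-min library, and with library size alone. The 5-min and no-rest groups differed by log2 0.31 without passing the threshold (edgeR adjusted p = 0.0685), and passed it without the third no-rest library (log2 0.41).

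*Myo31DF* varied least of the 3. It had 42.1, 49.3 and 45.8 CPM in naïve libraries and 50.5, 51.2 and 53.3 CPM with no rest. It had 50.8, 50.7 and 51.8 CPM at 5 min, 54.9, 65.4 and 60.8 CPM at 10 min, and 41.5, 45.8 and 46.5 CPM at 15 min. The 10-min libraries were above all others, and the 15-min libraries overlapped the naïve ones. Group means were 45.7 ± 3.61, 51.7 ± 1.48, 51.1 ± 0.607, 60.4 ± 5.29 and 44.6 ± 2.71 CPM in time order (SD, n = 3 each).

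At 10 min *Myo31DF* was 1.32-fold its naïve level (log2 0.40, SE 0.10), given without a test. By size of that log2 fold change, *h* ranked 462, *grh* 1031 and *Myo31DF* 2134 among 11670 genes. Of the other 9 comparisons, *Myo31DF* passed the threshold in 1, the one of 15 min against 10 min, where it fell by 26.0% (log2 -0.44, edgeR adjusted p = 0.00335). This call uses the 10-min libraries, which may have counted in the choice of the gene. It missed the threshold with no rest (log2 0.18) and at 5 min (log2 0.16) against naïve, with an edgeR adjusted p of 0.337 for each. Its difference at 15 min against naïve was log2 -0.03 (edgeR adjusted p = 0.892). The naïve libraries in these comparisons may also have counted in the choice of the gene. Over no rest, 5 min and 15 min it did not pass (F = 2.50, edgeR adjusted p = 0.308).

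**Figure D3:**
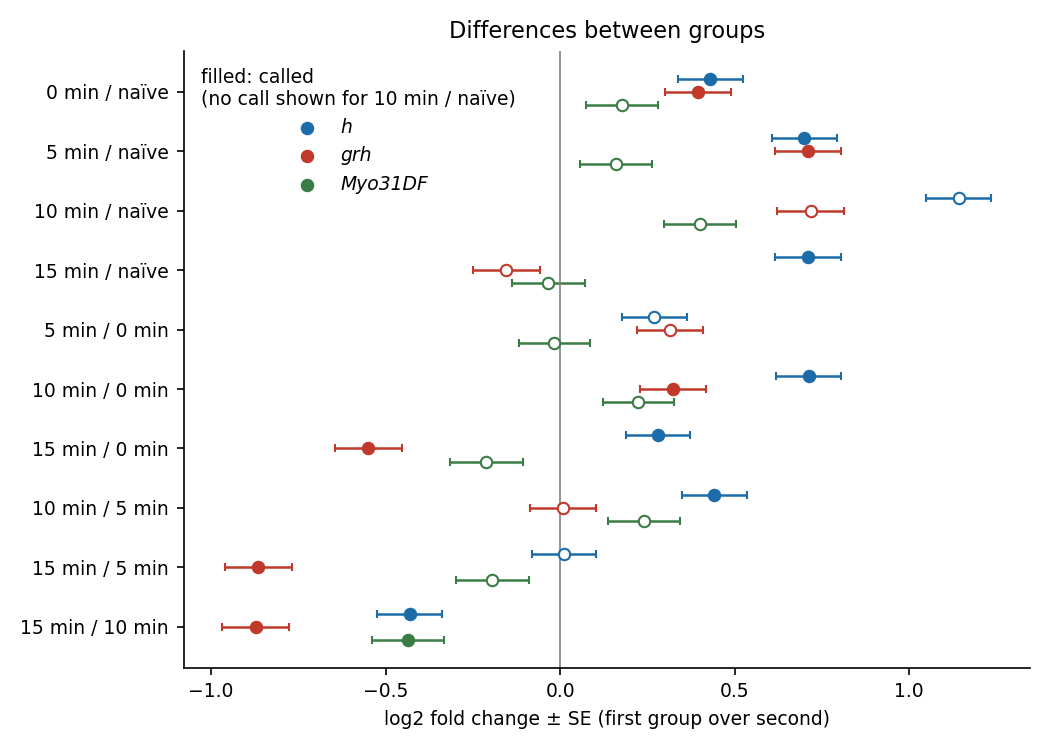
Log2 fold changes of *h*, *grh* and *Myo31DF* in the 10 comparisons between RNA groups, first-named group over second, with bars of ± 1 SE (edgeR), where 0 min is no rest. Filled points passed an adjusted p under 0.05, and no call is shown for 10 min against naïve. *grh* is the lowest of the 3 at 15 min against 5 min (log2 -0.86).

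Divided by the kb of exon of the gene, *h* had 47.8, 64.4, 77.6, 105 and 78.2 CPM per kb in time order. *grh* had 16.2, 21.3, 26.4, 26.6 and 14.5 CPM per kb, and *Myo31DF* 10.6, 12.0, 11.8, 14.0 and 10.3 CPM per kb. *h* was thus the highest of the 3 in every group on this scale. This order rests on the division by length. In plain CPM the mean of *grh* was above that of *h* in naïve libraries (148 against 112), with no rest (195 against 150.3) and at 5 min (243 against 181). Reads selected by oligo-dT lean to the 3′ end, so levels per kb depend on how coverage falls along transcripts, and the order of the genes is uncertain.

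The ratio of 2 genes within a library does not depend on its scaling, and the genes changed unequally. Counts of *h* over counts of *grh* averaged 0.749 ± 0.0693 in naïve, 0.776 ± 0.0896 with no rest, 0.748 ± 0.0523 at 5 min, 1.01 ± 0.105 at 10 min and 1.37 ± 0.112 at 15 min (SD, n = 3 each). The ratio was similar up to 5 min and highest at 15 min, when *grh* had fallen more than *h*. *h* over *Myo31DF* averaged 2.46, 2.91, 3.55, 4.10 and 4.11 in time order. *grh* over *Myo31DF* averaged 3.27, 3.77, 4.75, 4.06 and 3.01, highest at 5 min.

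Over no rest, 5 min and 15 min alone, the ratios of *h* to *Myo31DF* and of *grh* to *Myo31DF* differed between groups with an exact permutation p of 0.00357 each (adjusted 0.00536), the smallest that 280 partitions of 9 libraries can give. That of *h* to *grh* had an exact permutation p of 0.025 (adjusted 0.025). This test was added after the values were seen. Over all 5 groups, the exact permutation p was 0.000189 for *h* to *grh*, 0.000112 for *h* to *Myo31DF* and 0.00208 for *grh* to *Myo31DF* (adjusted over the 3 ratios 0.000284, 0.000284 and 0.00208).

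**Figure D4:**
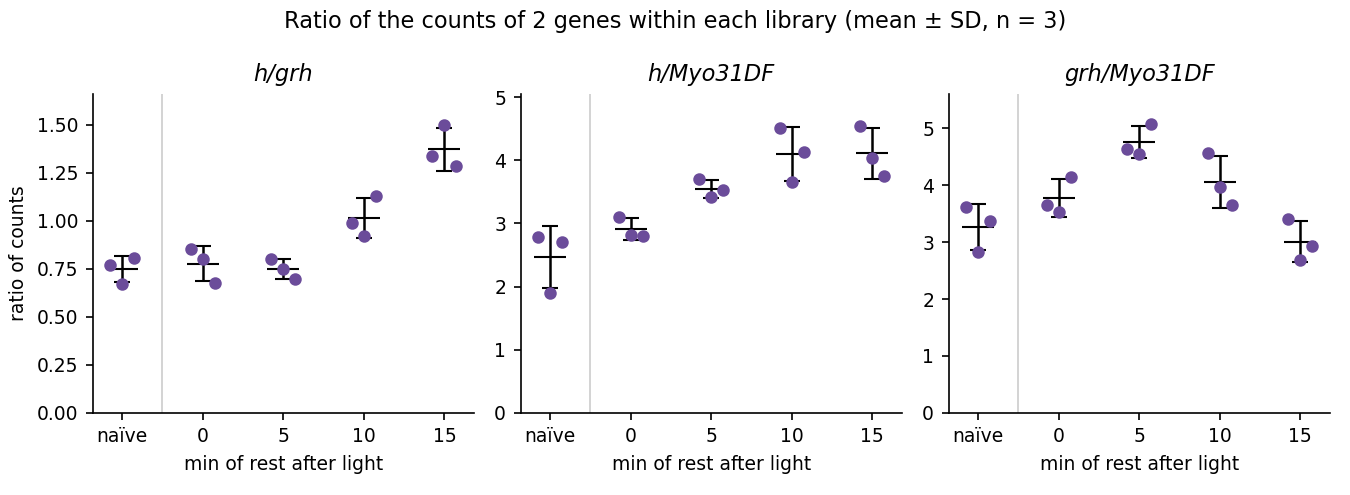
Ratios of counts of *h* to *grh*, *h* to *Myo31DF* and *grh* to *Myo31DF* within each library (vertical axes), in the 5 RNA groups in time order. Points are libraries, and black marks with bars are means ± SD (n = 3). *h* over *grh* averages 1.37 at 15 min and 0.749 in naïve libraries, while *grh* over *Myo31DF* peaks at 5 min with 4.75.

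Genes of the pathways around *h* were described from lists, chosen with earlier results of these data known. Of 12 other HES family repressors, 6 were tested. In the comparison of 10 min with naïve 1 was lower and the others were not called, where 13.9% of all tested genes were called lower. The median of the 6 was log2 -0.01, against -0.05 over all tested genes. The lower one was *Side*, a relative of the neuroblast factor Deadpan, with 26.1 ± 1.94 CPM at 10 min and 37.5 ± 5.03 CPM in naïve libraries (SD, n = 3 each, log2 -0.52, edgeR adjusted p = 0.00226). *E(spl)mbeta-HLH*, a Notch-responsive repressor, had 15.8 ± 1.53 CPM at 15 min and 30.9 ± 1.92 CPM at 10 min (log2 -0.97, edgeR adjusted p = 7.92e-05). *gro*, the corepressor that Hairy recruits, had 134 ± 6.99 CPM at 10 min and 141 ± 10.6 CPM in naïve libraries, and *CtBP* had 398 ± 39.1 CPM at 10 min and 367 ± 43.3 CPM in naïve libraries.

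Of 15 Notch pathway genes tested, 1 was higher at 10 min than in naïve libraries (median log2 0.12), where 14.5% of all tested genes were called higher. With no filter on low counts 4 were called, and with at least 10 counts in every library 2. At 15 min 6 were lower than at 10 min (median -0.29, against 0.03 over all tested genes), where 10.2% of all tested genes were called lower, and 4 with library size alone. *fng*, whose glycosyltransferase tunes the Notch receptor, passed both, with log2 0.46 (edgeR adjusted p = 0.000912) and -0.96 (edgeR adjusted p = 3.43e-08). The receptor *N* (log2 -0.62) and its ligand *Dl* (log2 -0.78) were among the 6 that fell at 15 min, with edgeR adjusted p-values of 0.000462 and 0.0022.

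Around *grh*, 10 of 12 epidermal barrier and junction genes, among them known Grainyhead targets, were higher at 10 min than in naïve libraries (median log2 0.35), against 14.5% of all tested genes. With library size alone 6 of the 12 were called. At 15 min 5 of the 12 were lower than at 10 min (median -0.29), against 10.2% of all tested genes. *kkv*, the chitin synthase of the cuticle, averaged 60.0, 79.6, 123, 172 and 13.5 CPM in time order, with log2 1.52 at 10 min against naïve (edgeR adjusted p = 2.13e-10) and -3.68 at 15 min against 10 min (edgeR adjusted p = 1.06e-17). *ple*, the tyrosine hydroxylase that serves both cuticle and dopamine synthesis, averaged 265, 300, 419, 455 and 197 CPM, and *knk*, a chitin-organising protein, 17.8, 23.3, 28.9, 35.1 and 13.6 CPM. *gem*, the other Grainyhead family gene listed, was higher at 10 min than in naïve libraries (log2 0.25, edgeR adjusted p = 0.0191), a call lost with library size alone and with upper quartile scaling.

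Markers of epidermis and cuticle were, like *grh*, higher at 10 min than in naïve libraries and lower at 15 min. Unlike *grh*, their sum also rose from 5 to 10 min, though single markers went both ways. By mean, *Cpr49Ae* (422 to 395 CPM) and *Cpr47Ef* (18.9 to 18.3 CPM) fell, while the other tested markers rose. Of 10 listed, 8 were matched and 7 tested. Of these, 6 were higher at 10 min than in naïve libraries, against 14.5% of all tested genes. At 15 min 7 were lower than at 10 min, against 10.2% of all tested genes. Their sum was 678 to 799 CPM in naïve libraries, 986 to 1076 CPM with no rest, 1157 to 1306 CPM at 5 min, 1325 to 1410 CPM at 10 min and 625 to 676 CPM at 15 min. *sha*, a marker of hair-forming epidermis, was at 0 in 6 libraries and never above 0.313 CPM, and *kkv* and *knk* are in both lists. The part of these cells in the levels of *h*, *grh* and *Myo31DF* was not tested. At 15 min, 12 of 12 photoreceptor markers and 4 of 4 tested fat body markers were higher than at 10 min, against 6.71% of all tested genes. The photoreceptor sum was 41186 to 49124 CPM at 15 min and 27511 to 28352 CPM at 10 min, and the fat body sum 18147 to 19604 CPM at 15 min and 13290 to 13885 CPM at 10 min, with *Fbp1* of that list at 0 in 7 libraries. The MB sum was 2944 to 3481 CPM at 15 min and 3172 to 3508 CPM at 10 min, with 2 of 11 MB markers called higher and 1 lower. Of 6 muscle markers, 4 were lower at 15 min than at 10 min, against 10.2% of all tested genes. Their sum was 456 to 699 CPM at 15 min and 885 to 966 CPM at 10 min. The part of these cells in the fall of the 3 genes at 15 min was not tested.

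Of 12 other myosin heavy chains tested, 6 were higher at 10 min than in naïve libraries (median log2 0.30, 14.5% of all tested genes called higher), and 4 with library size alone. At 15 min against 10 min 1 was higher and 3 were lower (median -0.16), where 6.71% of all tested genes were called higher and 10.2% lower. With no filter on low counts, and with only the 6 libraries compared, 5 were lower. *ck*, myosin VIIa of bristles and hearing organs, averaged 40.7, 57.7, 55.8, 79.1 and 78.0 CPM in time order, so unlike *Myo31DF* it was as high at 15 min as at 10 min (log2 -0.02, edgeR adjusted p = 0.931). *Myo10A* averaged 36.8, 46.2, 54.6, 63.0 and 39.2 CPM and was lower at 15 min than at 10 min (log2 -0.68, edgeR adjusted p = 0.000518). *ninaC*, the photoreceptor myosin, was higher at 15 min than at 10 min (log2 0.35, edgeR adjusted p = 0.00405).

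Of 10 tested left-right asymmetry genes, Myosin ID partners and light chains, 5 were higher at 10 min than in naïve libraries (median log2 0.13, 14.5% of all tested genes called higher), and 4 with library size alone, when 2 others were lower. At 15 min 3 were lower than at 10 min (median -0.05, 10.2% of all tested genes called lower). These 3 were *ft* (log2 -1.38), *ds* (-0.80) and *fj* (-1.34), with edgeR adjusted p-values of 2.91e-06, 0.000114 and 9.51e-06. Fat and Dachsous are giant cadherins of planar polarity and Four-jointed is the kinase that modifies them. *Mlc-c*, an essential light chain of unconventional myosins, averaged 153 ± 4.07 CPM at 10 min and 131 ± 6.38 CPM in naïve libraries (SD, n = 3 each, log2 0.22, edgeR adjusted p = 0.0393).

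A list of 5 activity-regulated genes, put together with earlier results of these data known, held *sr* and *kay*, which the study followed up, and *cbt*, *Jra* and *Hr38*. Of the 5, 4 (all but *Hr38*) were higher at 10 min than in naïve libraries (14.5% of all tested genes called higher), and the count is not independent evidence. At 15 min against 10 min *sr* and *Hr38* were higher (6.71% of all tested genes called higher). *sr*, an Egr-type zinc finger factor, averaged 32.8 ± 1.64 CPM at 15 min and 17.9 ± 1.48 CPM at 10 min, and *Hr38*, an orphan nuclear receptor, 35.7 ± 5.62 CPM at 15 min and 11.8 ± 2.95 CPM at 10 min (SD, n = 3 each). The log2 differences were 0.87 (edgeR adjusted p = 7.85e-05) and 1.60 (edgeR adjusted p = 1.9e-07), opposite in sign to those of *h*, *grh* and *Myo31DF*. The rest of the list was not called in this comparison. *kay* had the same sign as *h*, *grh* and *Myo31DF* (log2 -0.30, edgeR adjusted p = 0.0623), and *cbt* (0.11) and *Jra* (-0.02) differed little.

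The pattern of each gene over the 15 libraries was set against all tested genes with a mean log2 CPM of at least 1, as a description by Pearson's r of log2 CPM. The libraries share groups and scaling, so high r values are common. Nearest to *h* were *whd*, carnitine palmitoyltransferase (r = 0.983), *LamC*, lamin C (0.977), *ced-6*, an engulfment adaptor (0.974), *ttk*, the zinc finger factor Tramtrack (0.972), and *AOX3*, an aldehyde oxidase (0.970). Nearest to *grh* were *CG6739* (0.971), *Cht7*, a chitinase (0.970), *CG4404* (0.965), *Gfat1* of the hexosamine pathway (0.959) and *Cda5*, a chitin deacetylase (0.956). Nearest to *Myo31DF* were *CG32407* (0.955), *bond*, a fatty acid elongase (0.893), *CG13449* (0.885), *CG9640* (0.885) and *CG8785* (0.883).

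*Cht7* averaged 33.4, 56.9, 80.5, 96.2 and 28.9 CPM in time order, and *Cda5* 492, 668, 840, 1084 and 406 CPM, so both were near or below their naïve mean at 15 min, like *grh*. *whd* averaged 283, 395, 449.8, 614 and 442 CPM, above its naïve mean at 15 min, like *h*. Among the 3 genes themselves, r was 0.549 for *h* and *grh*, 0.560 for *h* and *Myo31DF*, and 0.762 for *grh* and *Myo31DF*. When r was taken over the 5 group means instead of the libraries, 0 of the 5 nearest genes of *h*, 0 of *grh* and 1 of *Myo31DF* stayed in the top 5.

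**Figure D5:**
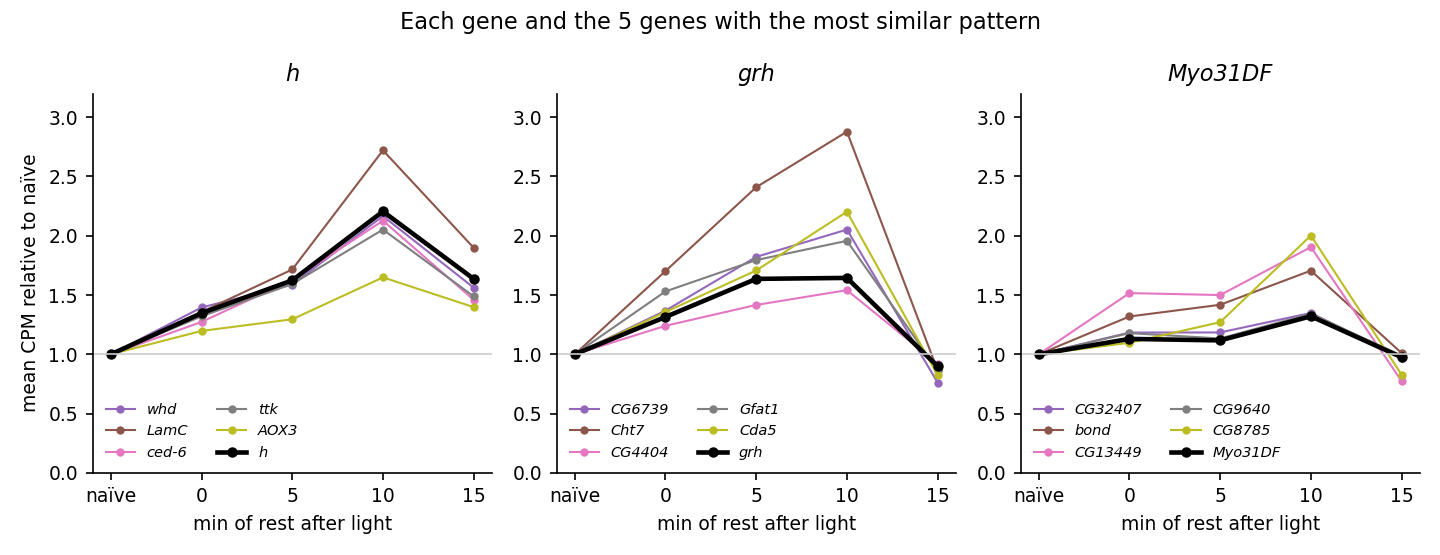
Mean CPM relative to naïve (vertical axes from 0) of *h*, *grh* and *Myo31DF*, thick black lines, and of the 5 genes with the highest Pearson's r to each over 15 libraries, thin coloured lines, in the 5 RNA groups in time order (n = 3 each). Genes near *grh* fall below their naïve level at 15 min while those near *h* stay above it.

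Annotated genes on the other strand overlap *grh* and *Myo31DF*, and because the strand setting of the counting is not given in the sources used here, their reads cannot be told apart with certainty. *CR44224*, antisense RNA across the start of *Myo31DF* (chr2L:10506301-10507015), had 0 counts in all 3 naïve libraries, 15, 1 and 7 counts with no rest, and 2, 7 and 12 counts at 5 min. It had 8, 29 and 10 counts at 10 min and 13, 7 and 3 counts at 15 min. With 3 counts put in place of the naïve sum of 0, its summed level was 6.35-fold with no rest, 5.86-fold at 5 min, 13.6-fold at 10 min and 8.50-fold at 15 min. These ratios do not take in the spread between libraries. The edgeR adjusted p against naïve was 0.0486 with no rest, 0.0375 at 5 min, 0.00357 at 10 min and 0.0246 at 15 min. Counts of *CR44224* were at most 3.10% of those of *Myo31DF* in the same library. The antisense gene *CR45270* at *grh* had 12 to 59 counts per library, between 0.807% and 1.92% of those of *grh*, and passed no test (edgeR adjusted p between 0.0923 and 0.992).

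*CG6094*, which faces *Myo31DF*, ran the other way. It had 10.2 ± 0.574 CPM at 10 min and 15.2 ± 1.71 CPM in naïve libraries (SD, n = 3 each, log2 -0.57, SE 0.18, edgeR adjusted p = 0.0182). At 15 min it had 14.6 ± 1.95 CPM, and the difference from 10 min missed the threshold (log2 0.51, edgeR adjusted p = 0.0527). Past the other end of *Myo31DF*, *CG6144* (log2 -0.53, edgeR adjusted p = 0.00622) and *CG13144* (-0.57, 0.0169) were also lower at 10 min than in naïve libraries. *CG7384*, beside *CG6094*, was not called (log2 -0.13, edgeR adjusted p = 0.552). Of all tested genes, 13.9% were called lower in this comparison. *h* overlaps no annotated gene and has none within 3 kb.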

How the data were processed

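Nuclear RNA-seq of 15 libraries and ChIP-seq site lists of CBP, CoRest-C and Rpd3 were used. The deposited counts are whole reads per gene, which the authors made with STAR on dm6 and HTSeq on exons. The site lists were made by the authors with MACS, and hold a fold enrichment (a ratio over local background) and a −log10 p score that the authors deposited per site. Repeated entries of a list were counted once. The deposited fold changes and p-values of the authors' own comparisons were not used.

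Counts were fitted with edgeR 4.0.16 (limma 3.58.1, R 4.3.3) as 1 mean per group over all 15 libraries, with TMM scaling, filterByExpr by group and quasi-likelihood tests adjusted by Benjamini-Hochberg over 11670 genes, at a threshold of 0.05. Totals ranged from 10392334 to 18809246 counts, which sets the precision, and no pair of replicates agreed within sampling noise. Each SE is the absolute log2 fold change over the square root of the quasi-likelihood F, and intervals are log2 ± 2 SE. Scripts were tested on simulated counts. Sites were assigned to a gene body plus 1 kb upstream, with at least 1 bp of overlap. Gene models and RefSeq sequences are of dm6, and *h* was matched by its identifier. Python 3.11, numpy 2.4.6, pandas 2.3.3, scipy 1.17.1 and matplotlib 3.10.9 served for the rest.

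The 3 genes and all lists were chosen with earlier results of these data known. Of each list, at most 4 genes called in the most comparisons were named, and for each of the 3 genes the 5 with the highest r. Alternatives were library size or upper quartile scaling, DESeq2 1.42.0, other filters, only the 6 libraries compared, a replicate block and each library left out. The F test's alternatives, calls and lists with other settings, and the ratio test over 3 groups were added after seeing the data. Batches and the strand setting are not given in the sources used here.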

Additional observations from a re-analysis of the deposited data

How the results depend on the processing

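Of the 30 log2 fold changes of the 3 genes, 204 of 210 alternatives kept direction and side of the threshold, as did 159 of 180 with 1 library left out. *grh* with no rest against naïve was 0.39 with only the 6 libraries compared, and 0.29 to 0.45 with 1 library left out. *grh* at 5 min against no rest passed with no filter (0.31, edgeR adjusted p = 0.0426) and with DESeq2 (0.32, adjusted p = 0.0291), and lay between 0.25 and 0.41 with 1 library left out. With library size alone, *grh* at 10 min against no rest (0.25) and *h* at 15 min against no rest (0.24) missed the threshold and *grh* at 10 min against 5 min turned in sign (-0.017). With 1 library left out these lay between 0.27 and 0.43, between 0.25 and 0.32, and between -0.034 and 0.074. Further such ranges were 0.41 to 0.47 for *h* at 10 min against 5 min, -0.021 to 0.047 for *h* at 15 min against 5 min, -0.090 to 0.025 for *Myo31DF* at 15 min against naïve and -0.035 to 0.0057 for *Myo31DF* at 5 min against no rest. The F test of *h* passed with upper quartile scaling (6.21, edgeR adjusted p = 0.0467) and with at least 10 counts in every library (6.46, edgeR adjusted p = 0.0365). The causes of these changes were not tested.

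Library size alone moved the median over all genes at 10 min against naïve to -0.17, against -0.05 with TMM, and the share of calls that were higher to 30.3%, against 51.0%. At 15 min against 10 min that share was 47.1%, against 39.6%. With only the 6 libraries compared, calls numbered 497 for no rest against naïve (972 with all libraries), 1023 for 5 min (1724) and 682 for 15 min (1126), and 621 for 10 min against 5 min (221, or 372 with DESeq2 and 89 to 150 with 1 library left out). Leaving out the third no-rest library gave 578 calls for no rest against naïve, and leaving out 1 library gave 1063 to 1340 for 10 min against no rest (1664) and 231 to 318 for 5 min against no rest (366). Of the epidermal list, 8 genes in place of 5 were lower at 15 min than at 10 min with only the 6 libraries compared.

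Replicate numbers are only names here: deviations from group means of libraries with the same number correlated at -0.103 to 0.0494, and those with different numbers at -0.0708 to 0.120. With a replicate block, *h* with no rest against naïve was 0.43, and the block changed no call of the 30. Above the median fold enrichment of their lists, 6 of 13 sites at *grh* and 1 of 3 at *Myo31DF* remained, and *Myo31DF* had 5 entries with repeats counted. Over 5 group means, 0, 0 and 1 of the 5 nearest genes of *h*, *grh* and *Myo31DF* were shared. Sites have no depth or replicate values here, which limits them to 1 height each.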
